A study of Homo sapiens with 24 samples.

Results

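The genes that build and balance nucleotides were examined by RNA sequencing in SAS cells, a human oral squamous cell carcinoma line, with wild-type NRF2 (WT) or the NRF2 variant E79Q, which alters a residue in the stretch by which KEAP1 holds NRF2. NRF2, encoded by NFE2L2, is a transcription factor that switches on detoxifying and redox genes. The 30 genes were chosen by name with earlier results of these data known, so their shares set against all genes are descriptive. All 30 were found among the 58735 genes of the deposited count table. All 30 passed the filter on low counts that left 15956 genes to test. The list holds 2 PRPP synthetases, 6 genes of the purine ring, 4 that turn IMP into AMP and GMP, 5 of the pyrimidine ring, 4 nucleotide kinases and 9 that supply or limit deoxynucleotides. The groups were irradiated E79Q with CB-839, irradiated WT with CB-839, irradiated E79Q, irradiated WT, E79Q with CB-839, WT with CB-839, control E79Q and control WT, with 3 libraries in each of the 8 groups and 24 in all. CB-839 is a small-molecule inhibitor of glutamine breakdown and was given at 0.1 µM for 24 h ahead of irradiation. Radiation was a single exposure to 4 Gy of x-rays, with RNA taken 24 h later. Irradiated cells without CB-839 had received vehicle, whereas the labels do not say whether unirradiated controls had, nor when unirradiated cells were harvested. The study's text describes the 4 irradiated groups, and the unirradiated groups are known from their labels. How E79Q was introduced, whether each genotype is 1 clone, and whether replicates are separate cultures is stated in none of the sources used here, so the p-values measure the spread between these libraries, which may be technical, and clone and genotype cannot be told apart.

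Purine and pyrimidine rings are both assembled with nitrogen from glutamine. PPAT, PFAS and GMPS take the amide nitrogen of glutamine in the purine pathway, and CAD, CTPS1 and CTPS2 take it in the pyrimidine pathway. Aspartate and, for purines, glycine and folate carbon supply other atoms. Phosphoribosyl pyrophosphate (PRPP), made by PRPS1 and PRPS2, gives the sugar to both. Ribonucleotide reductase (RRM1 and RRM2) then makes deoxynucleotides for DNA, and TYMS, TK1 and DTYMK feed the thymidine branch. Breakdown of glutamine draws on the same pool and supplies the glutamate from which aspartate is made.

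Promoter windows from RefSeq (GRCh38.p14; 250 bases before to 50 after an annotated start) were found for 28 of the 30 genes, the exceptions being IMPDH2 and ADSL. The letters CACGTG, an E-box that MYC and related factors can bind and that reads the same on both strands, lay in a window of 7 of those 28 genes (25.0%), against 8.77% of 27305 genes with a window. The shares of all genes with a window, here and below, also cover genes not tested in these cells, so they are not matched for expression. The matches are shown because the genes that carry them sit in both pathways, with the motif in capitals, 5′ to 3′ on the gene's strand.
PPAT: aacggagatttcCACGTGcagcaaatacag
ATIC: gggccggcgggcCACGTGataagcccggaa
DHODH: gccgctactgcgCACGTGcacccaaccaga
NME1: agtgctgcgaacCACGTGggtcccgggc
DCK: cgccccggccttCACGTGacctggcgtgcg
DCTPP1: ggagggttcctcCACGTGgtcgggaagcgg
The PPAT stretch is chr4:56435780-56435809 on the minus strand, where the window of PPAT overlaps that of PAICS, which is read the other way, so the same site is the match of PAICS. The others lie at chr2:215312001-215312030 (ATIC, plus, with another match further on in its window), chr16:72008573-72008602 (DHODH, plus), chr17:51153581-51153608 (NME1, plus), chr4:70993521-70993550 (DCK, plus) and chr16:30429792-30429821 (DCTPP1, minus). Of these 7 genes, NME1, DCTPP1, PAICS and DHODH are among those whose response to CB-839 in unirradiated cells differed between genotypes, and PPAT, ATIC and DCK are not. This division depends on the setting: the DHODH call was lost without any 1 of 10 of the 12 libraries, PPAT was called with no filter, with the compared groups fitted alone and without 4 libraries with a GC trend, and ATIC was called with DESeq2, with RLE factors and with the compared groups alone. The core TGACNNNGC of the antioxidant response element, through which NRF2 acts, was found on either strand in a window of 6 of the 28 genes (21.4%; PPAT, PAICS, GUK1, RRM1, TK1 and DCK), against 16.1% of all genes with a window. The exact letters TTTCGCGC, a form of the E2F site, and TGATGNAAT, a form of the ATF4 site, were in the windows of 0 of the 28 genes. The shares of all genes were 0.63% and 1.22%. Other forms of either site were not searched, so these counts do not show that the genes lack such sites. A match is a description of the letters and not a bound site.

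The libraries held 14285084 to 23640197 counted reads, and mitochondrial transcripts made up 1.93% to 3.55% of them. NQO1, a target of NRF2 that marks the genotype, had 612, 574 and 574 counts scaled to library size (CPM) in control E79Q cells, against 351, 357 and 354 CPM in control WT cells, and was higher in E79Q in all 4 settings. All 8 squamous markers were read in every group, with summed levels of 1961 to 2092 CPM in control E79Q cells and 3124 to 3173 CPM in control WT cells. Markers of fibroblasts, endothelium and immune cells summed to 5.54 to 10.99 CPM in the other libraries and to 46.6 CPM in control E79Q library 2, where COL1A1 and COL1A2 stood at 29.5 and 15.3 CPM; of these 8 markers, PTPRC, CD3E and LUM had a median of 0 CPM over the libraries. In 4 libraries (irradiated CB-839 E79Q 2, irradiated CB-839 WT 1, CB-839 WT 3 and control E79Q 1) GC-rich genes ran high against the mean of their group. The correlations were 0.658, 0.426, 0.318 and 0.301 in that order across 13114 genes, which are not independent. Irradiated CB-839 E79Q 1 was at -0.604. Irradiated CB-839 E79Q 3 was at -0.287. Each group mean includes the library itself, so these values are in part tied to the 0.658 of the same group. Whether the -0.604 is also a separate trend was not tested. Leaving out the first 4 of these libraries is an alternative named beside the counts.

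Levels per kilobase of gene length differed widely among the 30 genes. TK1, the cytosolic thymidine kinase, and IMPDH2, the main proliferative form of the enzyme that commits IMP to GMP, were highest at 148 and 139 CPM per kilobase averaged over all libraries. IMPDH1, its sister, followed at 73.6 and PAICS at 59.6 CPM per kilobase. ADSL, which acts at 2 steps of purine synthesis, was lowest at 1.28 CPM per kilobase, below SAMHD1 at 2.3 and CTPS2 at 2.98. However, ADSL shares 18.9% of its exonic bases with another gene on the same strand, which drew 35 reads over all libraries. Reads from the shared bases may be missing from the ADSL count, which was not tested. All 30 genes were read in every library, and the highest library exceeded the lowest by between 1.15-fold (GART) and 2-fold (PPAT). Changes were small: among the 85 calls between pairs of groups, folds ran from 1.1 (UMPS) to 1.42 (PFAS). Summed over the 30 genes, control E79Q libraries held 4562, 4648 and 4763 CPM (lowest, middle and highest), against 4278, 4317 and 4399 CPM in control WT; the 2 sets did not overlap. With CB-839 the order was the other way round, at 4020, 4035 and 4094 CPM in E79Q, against 4361, 4472 and 4609 CPM in WT.

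The first comparison asked whether E79Q cells carry more nucleotide synthesis mRNA than WT cells when neither drug nor radiation is given. In control cells, 11 of the 30 genes were higher in E79Q and 1, CTPS2, was lower (edgeR's quasi-likelihood test, Benjamini-Hochberg adjusted p under 0.05 over all genes tested). Of all genes tested, 9.62% were called higher, 10.1% lower and 19.7% in either direction. The median log2 change of the 30 genes was 0.13, against -0.01 for all genes tested. The libraries of the 2 genotypes did not overlap for 18 of the 30 genes, at a background of 37.1%. Fewer cells of a growth state and less of a transcript per cell cannot be told apart in bulk RNA.

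**Figure D1:**
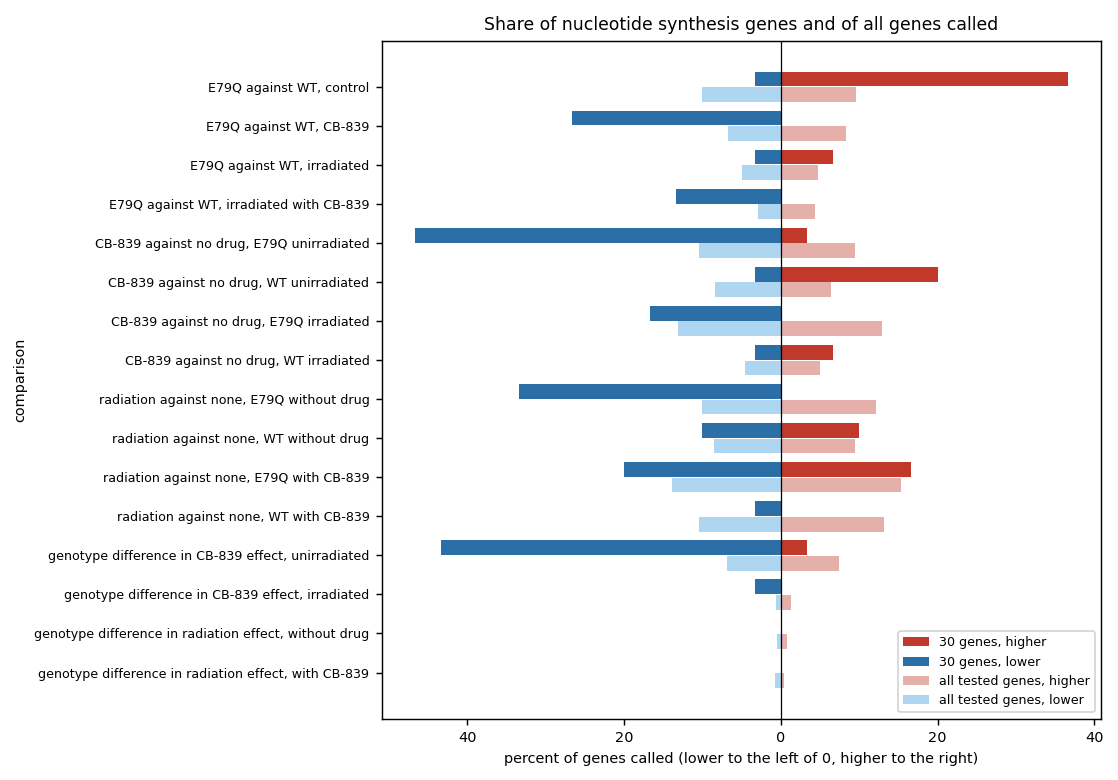
Share of the 30 nucleotide synthesis genes (dark bars) and of all 15956 tested genes (pale bars) called in each of 16 comparisons, as percent of genes, with genes called higher to the right of 0 and lower to the left. The bars of the 30 genes point to the right for E79Q against WT in control cells (11 higher) and to the left for CB-839 in unirradiated E79Q cells (14 lower) and for the genotype difference in the CB-839 effect (13 lower).

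The largest difference was that of PFAS (chr17:8247618-8270491, plus strand), which takes glutamine nitrogen into the purine ring. PFAS had 207, 195 and 197 CPM in control E79Q cells, against 143, 134 and 144 CPM in control WT cells, a log2 change of 0.51 ± 0.05 (SE; adjusted p = 4.64e-08). Every E79Q library lay above every WT library. ATIC, which closes the purine ring, was also higher, by 0.17 ± 0.06 (adjusted p = 0.0347). The other purine ring genes PPAT, GART, PAICS and ADSL differed by 0.06 ± 0.12, 0.02 ± 0.05, 0.03 ± 0.05 and 0.17 ± 0.13 and did not pass the test. PRPS1 (chrX:107628424-107651026, plus strand), which makes the shared PRPP, had 57.7, 51.5 and 57.4 CPM in control E79Q cells, against 43.1, 44.5 and 43.5 CPM in control WT cells, a log2 change of 0.35 ± 0.06 (SE; adjusted p = 0.000243). Its X-linked sister PRPS2 differed by -0.06 ± 0.06 and was not called. IMPDH1 (chr7:128392277-128410252, minus strand) was higher at 0.23 ± 0.06 (SE; adjusted p = 0.007), whereas IMPDH2, GMPS and ADSS were not called.

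Of the 5 pyrimidine ring genes, CAD, UMPS and CTPS1 were higher in control E79Q cells and CTPS2 was lower, while DHODH was not called at 0.14 ± 0.08. CTPS1 (chr1:40979335-41012565, plus strand) and CTPS2 are alternative forms of the enzyme that aminates UTP to CTP. CTPS1 had 237, 225 and 229.5 CPM in control E79Q cells, against 175, 188 and 186 CPM in control WT cells, a log2 change of 0.33 ± 0.05 (SE; adjusted p = 1.36e-05). CTPS2 went the opposite way, with 15.6, 15.1 and 15.3 CPM in control E79Q cells and 18.7, 17.6 and 17.9 CPM in control WT cells, a log2 change of -0.24 ± 0.08 (SE; adjusted p = 0.0469). The 3 libraries of each genotype were apart for both genes, in opposite order. CAD (chr2:27217390-27243943, plus strand), the multi-domain protein of the opening steps, had 302, 292 and 288 CPM in control E79Q cells, against 247, 239 and 259 CPM in control WT cells, a log2 change of 0.24 ± 0.06 (SE; adjusted p = 0.00358). UMPS, which makes UMP, was higher by 0.15 ± 0.04 (adjusted p = 0.0179).

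Among the genes of deoxynucleotide supply, TYMS, RRM2 and DCTPP1 were higher in control E79Q cells. TYMS (chr18:657604-673578, plus strand) makes dTMP from dUMP and had 38.7, 34.6 and 37.5 CPM in control E79Q cells, against 28.7, 27.6 and 27.9 CPM in control WT cells, a log2 change of 0.40 ± 0.07 (SE; adjusted p = 0.000171). RRM2, the small subunit of ribonucleotide reductase whose level follows S phase, had 238, 242 and 218 CPM in control E79Q cells and 192, 197 and 189.6 CPM in control WT cells, a log2 change of 0.27 ± 0.05 (SE; adjusted p = 0.000117). Both sets of libraries were apart. The large subunit RRM1 differed by -0.0049 ± 0.06 and was not called. DCTPP1, which removes dCTP and modified deoxynucleotides, differed by 0.22 ± 0.08 (adjusted p = 0.0418), and NME1, a nucleoside diphosphate kinase, by 0.31 ± 0.09 (adjusted p = 0.0222). TYMS shares 39.1% of its exonic bases with ENOSF1 on the other strand and DCTPP1 42.1% with ZNF771. The strand setting of the counting and its handling of reads in shared bases are not stated. The counts of TYMS and DCTPP1 may therefore hold reads of those partners or lack their own reads from the shared bases. The partners drew 11942 and 3637 reads over all libraries. RRM2 shares 20.2% of its exonic bases with another gene on the same strand, which drew 171 reads over all libraries. Reads from those bases may be missing from the RRM2 count, which was not tested.

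PRPS1, PFAS, CAD, CTPS1, RRM2 and TYMS stayed called without any 1 of the 6 libraries. IMPDH1 lost its call without control E79Q library 1 (adjusted p = 0.0809). UMPS lost its call without control E79Q library 1 or control WT library 1 or 2 (adjusted p from 0.0515 to 0.0745). NME1 lost its call without control E79Q library 1 or 3 or control WT library 1 or 2 (adjusted p from 0.0783 to 0.118). ATIC lost its call without control E79Q library 1 or 3 or control WT library 1 or 3 (adjusted p from 0.103 to 0.193). DCTPP1 lost its call without control E79Q library 1 or 2 or control WT library 1, 2 or 3 (adjusted p from 0.0665 to 0.189). CTPS2 lost its call without any 1 of the 6 libraries compared (adjusted p from 0.069 to 0.16). The count of 12 fell to 6 without control E79Q library 1 and to 7 without control WT library 1, and was 10 without control E79Q library 2, the library with the collagen reads. Without the 4 libraries with a GC trend it was 15. The genes gained in that run were CMPK1 (0.17) and DTYMK (0.20), called higher, and TK1 (-0.20) and DUT (-0.13), called lower. With the compared groups fitted alone, DTYMK was also called higher (0.21) and TK1 lower (-0.17).

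The second comparison asked how CB-839 alters these genes and whether the 2 genotypes respond alike. In unirradiated E79Q cells CB-839 lowered 14 of the 30 genes and raised 1, CTPS2, where 10.4% of all genes tested were called lower, 9.44% higher and 19.8% in either direction. In unirradiated WT cells it raised 6 and lowered 1, TK1, where 6.35% of all genes were called higher, 8.44% lower and 14.8% in either direction. The median log2 change of the 30 genes was -0.17 in E79Q (0.02 for all genes) and 0.08 in WT (-0.01 for all genes). Libraries with and without the drug did not overlap for 19 of the 30 genes in E79Q, at a background of 37.9%, and for 13 in WT, at a background of 33%. The 2 comparisons use separate libraries. CTPS1, NME1, PFAS and PRPS1 were called in both genotypes and in opposite directions, and TK1 was lower in both.

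**Figure D2:**
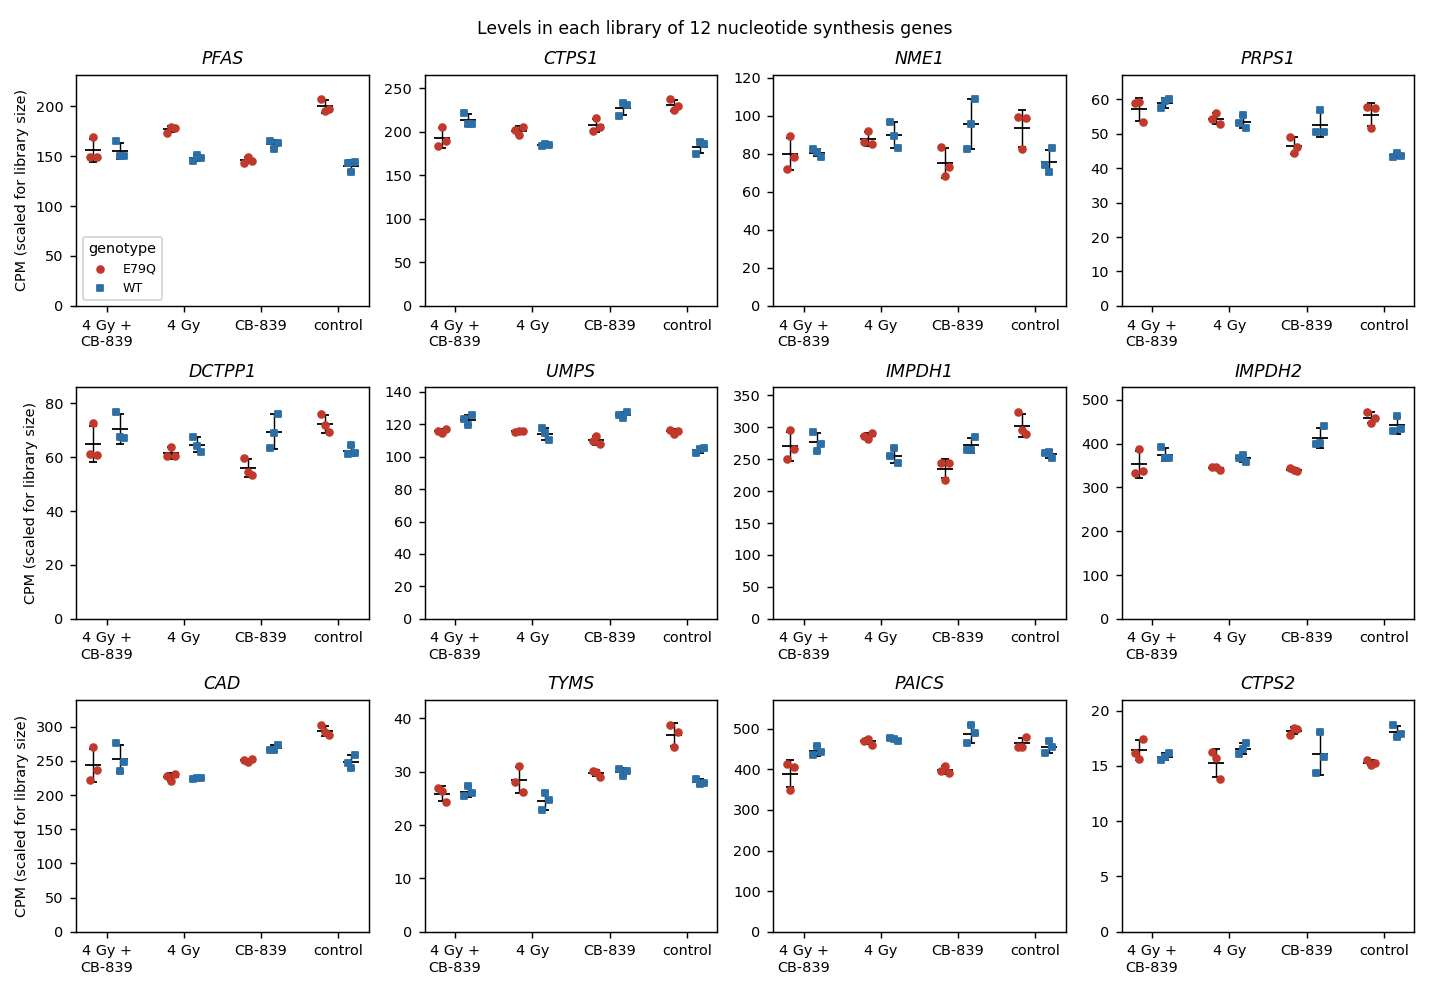
CPM of 12 nucleotide synthesis genes in each library (red circles, E79Q; blue squares, WT), with the mean and SD of the 3 libraries as black bars, for each treatment from 4 Gy with CB-839 to control. For PFAS, CTPS1 and PRPS1 the E79Q points lie above the WT points in control cells and below them with CB-839, with all 3 libraries of each genotype apart, and CTPS2 shows the opposite order in control cells. With CB-839 the genotype difference of PFAS, CTPS1 and PRPS1 was not called by edgeR and was called by DESeq2. The genotypes did not overlap for 37.1% of all genes tested in control cells and 32.5% with CB-839.

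In E79Q cells the largest fall was that of PFAS, which had 143, 149 and 145 CPM with CB-839, against 207, 195 and 197 CPM in control E79Q cells, a log2 change of -0.45 ± 0.05 (SE; adjusted p = 5.12e-07). In WT cells PFAS had 165, 158 and 163 CPM with CB-839, against 143, 134 and 144 CPM in control WT cells, a log2 change of 0.20 ± 0.05 (SE; adjusted p = 0.00881). The responses ran in opposite directions and differed by -0.66 ± 0.08 (SE; adjusted p = 5.89e-07). PAICS, a bifunctional enzyme of the purine ring, had 395, 409 and 391 CPM with CB-839 in E79Q cells, against 456, 455 and 481 CPM in control E79Q cells, a log2 change of -0.22 ± 0.05 (SE; adjusted p = 0.00284). In WT cells PAICS had 465, 509 and 489 CPM with CB-839 and 439, 469.7 and 454 CPM in control cells, which did not pass the test at 0.10 ± 0.05. ATIC was lower with CB-839 in E79Q cells at -0.21 ± 0.06 (SE; adjusted p = 0.0103). GART, PPAT and ADSL were called in neither genotype.

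PRPS1 had 49.1, 44.4 and 46 CPM with CB-839 in E79Q cells, against 57.7, 51.5 and 57.4 CPM in control E79Q cells, a log2 change of -0.26 ± 0.06 (SE; adjusted p = 0.00509). In WT cells PRPS1 had 50.5, 56.8 and 50.6 CPM with CB-839, against 43.1, 44.5 and 43.5 CPM in control WT cells, a log2 change of 0.27 ± 0.06 (SE; adjusted p = 0.00467). Neither pair of groups overlapped, and the order was reversed between genotypes. On the branch to GMP, IMPDH2 (chr3:49024325-49029408, minus strand) had 343, 340.3 and 338 CPM with CB-839 in E79Q cells, against 472, 447 and 458 CPM in control E79Q cells, a log2 change of -0.43 ± 0.05 (SE; adjusted p = 1.04e-06). IMPDH2 had 399.5, 400.3 and 439.8 CPM with CB-839 in WT cells, against 428, 462 and 434 CPM in control WT cells, a change of -0.10 ± 0.05 that was not called. IMPDH1 was lower with CB-839 in E79Q cells at -0.36 ± 0.06 (SE; adjusted p = 7.24e-05) and differed by 0.07 ± 0.06 in WT cells. GMPS, the glutamine-using step from XMP to GMP, changed by -0.04 ± 0.05 in E79Q and -0.02 ± 0.05 in WT and was called in neither.

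All 5 pyrimidine ring genes were called for the difference between genotypes. CTPS1 had 201, 216 and 206 CPM with CB-839 in E79Q cells, against 237, 225 and 229.5 CPM in control E79Q cells, a log2 change of -0.15 ± 0.05 (SE; adjusted p = 0.0316). In WT cells CTPS1 had 218, 233 and 230.5 CPM with CB-839, against 175, 188 and 186 CPM in control WT cells, a log2 change of 0.31 ± 0.05 (SE; adjusted p = 5.56e-05). CTPS1 thus had opposite responses, while those of its sister CTPS2 were 0.25 ± 0.09 in E79Q (adjusted p = 0.0381) and -0.17 ± 0.08 in WT (adjusted p = 0.202). UMPS (chr3:124730366-124749273, plus strand) had 109.8, 113 and 108 CPM with CB-839 in E79Q cells, against 117, 114 and 116 CPM in control E79Q cells, which was not called at -0.07 ± 0.04. In WT cells UMPS had 126, 124 and 127 CPM with CB-839, against 102, 104 and 106 CPM in control WT cells, a log2 change of 0.27 ± 0.04 (SE; adjusted p = 8.52e-05). Both pairs of groups were apart. DHODH, the mitochondrial enzyme that makes orotate, had 20.8, 20.5 and 22.2 CPM with CB-839 in E79Q cells, against 29.3, 27 and 26.1 CPM in control E79Q cells, a log2 change of -0.37 ± 0.09 (SE; adjusted p = 0.00251), and changed by -0.01 ± 0.09 in WT cells. CAD was lower with CB-839 in E79Q cells, at a log2 change of -0.23 ± 0.06 (SE; adjusted p = 0.00582), and changed by 0.11 ± 0.06 in WT cells.

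NME1 had 83.6, 68.2 and 73.1 CPM with CB-839 in E79Q cells, against 99.3, 82.3 and 98.9 CPM in control E79Q cells, a log2 change of -0.32 ± 0.10 (SE; adjusted p = 0.0175). In WT cells NME1 had 82.4, 95.8 and 109 CPM with CB-839, against 73.9, 70.4 and 82.8 CPM in control WT cells, a log2 change of 0.34 ± 0.09 (SE; adjusted p = 0.0151). In each genotype 1 library with CB-839 fell within the range of the controls. Its neighbour NME2 changed by -0.11 ± 0.12 and 0.21 ± 0.12 and was called in neither. NME1 and NME2 are close paralogs that also share exons with a read-through gene, which drew 63 reads over all libraries.

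Of the deoxynucleotide genes, TYMS, TK1, DUT and DCTPP1 were lower with CB-839 in E79Q cells. DCTPP1 (chr16:30423619-30430075, minus strand) had 59.8, 54.4 and 53.5 CPM with CB-839 in E79Q cells, against 76.1, 71.8 and 69.3 CPM in control E79Q cells, a log2 change of -0.37 ± 0.08 (SE; adjusted p = 0.000687). TYMS had 30.1, 30 and 29.1 CPM with CB-839 in E79Q cells, against 38.7, 34.6 and 37.5 CPM in control E79Q cells, a log2 change of -0.32 ± 0.07 (SE; adjusted p = 0.00232). In both genes every library with CB-839 was below every control library, and in WT cells the changes of 0.16 ± 0.08 and 0.10 ± 0.07 were not called. DUT, which removes dUTP and makes dUMP, was lower with CB-839 in E79Q cells, at a log2 change of -0.30 ± 0.05 (SE; adjusted p = 9.95e-05), and changed by -0.12 ± 0.05 (adjusted p = 0.108) in WT cells. TK1 was lower with CB-839 at -0.31 ± 0.07 (SE; adjusted p = 0.00324) in E79Q and -0.24 ± 0.07 (SE; adjusted p = 0.0251) in WT. RRM2 was higher with CB-839 in WT cells at 0.15 ± 0.05 (SE; adjusted p = 0.0267) and changed by -0.05 ± 0.05 in E79Q cells.

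**Figure D3:**
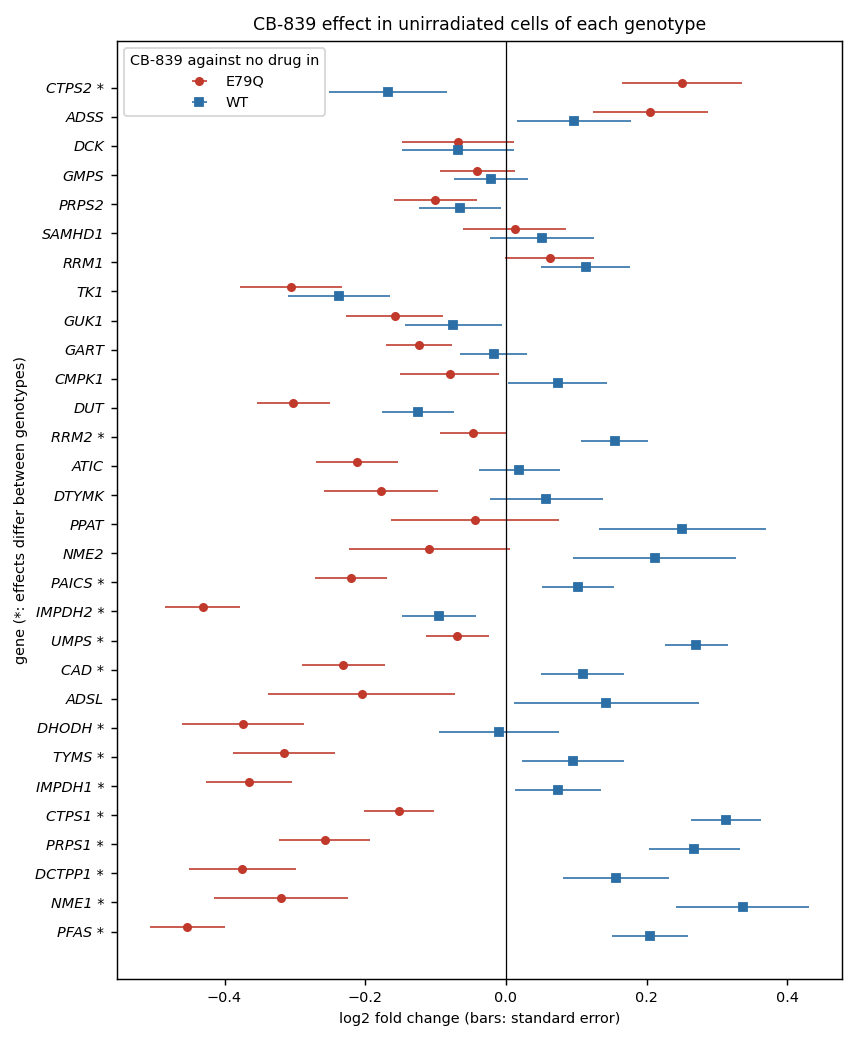
Log2 fold change with CB-839 in unirradiated E79Q (red circles) and WT cells (blue squares) for the 30 genes, with standard errors as bars and genes ordered by the genotype difference; an asterisk marks an adjusted p under 0.05 for that difference. For PFAS at the bottom the effects are -0.45 in E79Q and 0.2 in WT, and CTPS2 at the top is the called gene whose effect is more positive in E79Q.

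The difference between genotypes was tested directly as the CB-839 effect in E79Q minus that in WT. It was negative and called for 13 of the 30 genes and positive and called for CTPS2, where 6.83% of all genes tested were called negative, 7.46% positive and 14.3% in either direction. Its median was -0.26 over the 30 genes and 0.03 over all genes tested. The differences were -0.66 ± 0.08 for PFAS, -0.66 ± 0.13 for NME1, -0.53 ± 0.11 for DCTPP1 and -0.53 ± 0.09 for PRPS1, with adjusted p = 5.89e-07, 0.0012, 0.000986 and 0.000199 in that order. CTPS1, IMPDH1, TYMS, DHODH, CAD, UMPS, IMPDH2, PAICS and RRM2 followed, between -0.46 ± 0.07 and -0.20 ± 0.07. CTPS2 was at 0.42 ± 0.12 (SE; adjusted p = 0.0181). Without the 4 libraries with a GC trend 15 genes were called. Since control E79Q and control WT enter both this difference and the comparison of controls above, the 2 results share libraries.

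Leaving out any 1 library kept the call for 11 of the 15 genes in E79Q cells (PRPS1, PFAS, PAICS, IMPDH1, IMPDH2, CAD, DHODH, TYMS, TK1, DUT and DCTPP1), 2 of the 7 in WT cells (UMPS and CTPS1) and 11 of the 14 for the difference (PRPS1, PFAS, PAICS, IMPDH1, IMPDH2, CAD, UMPS, CTPS1, NME1, TYMS and DCTPP1). Among the CB-839 calls in E79Q cells, ATIC lost its call without control E79Q library 1 or CB-839 E79Q library 2 (adjusted p from 0.0551 to 0.0664). CTPS1 lost its call without control E79Q library 1 or 3 or CB-839 E79Q library 1 or 3 (adjusted p from 0.0542 to 0.119). NME1 lost its call without control E79Q library 1 or 3 or CB-839 E79Q library 2 or 3 (adjusted p from 0.063 to 0.109). CTPS2 lost its call without any 1 of the 6 libraries compared (adjusted p from 0.0709 to 0.122). Among those in WT cells, PRPS1 lost its call without CB-839 WT library 2 (adjusted p = 0.0549). PFAS lost its call without control WT library 2 or CB-839 WT library 1 (adjusted p from 0.052 to 0.0752). NME1 lost its call without control WT library 1 or 2 or CB-839 WT library 3 (adjusted p from 0.0647 to 0.136). RRM2 lost its call without control WT library 1 or 3 or CB-839 WT library 1 or 2 (adjusted p from 0.0813 to 0.109). TK1 lost its call without control WT library 1 or 2 or CB-839 WT library 1 or 2 (adjusted p from 0.0761 to 0.122). For the difference, CTPS2 lost its call without control WT library 1 or CB-839 WT library 1 (adjusted p from 0.0569 to 0.0728). RRM2 lost its call without control E79Q library 1 or 2 or control WT library 1 or 3 or CB-839 E79Q library 2 or 3 or CB-839 WT library 1 or 2 (adjusted p from 0.0608 to 0.126). DHODH lost its call without control E79Q library 1 or 2 or control WT library 1, 2 or 3 or CB-839 E79Q library 1 or 2 or CB-839 WT library 1, 2 or 3 (adjusted p from 0.0538 to 0.114). The count in WT cells was 4 without control WT library 1 or 2 or CB-839 WT library 1 or 2. Without control E79Q library 2, the library with the collagen reads, the counts were 14 in E79Q cells and 13 for the difference. Without the 4 libraries with a GC trend they were 16 in E79Q cells and 10 in WT cells.

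With CB-839 on both sides, 8 of the 30 genes were lower in E79Q than in WT cells, and no gene was called higher, at a background of 6.72% lower, 8.3% higher and 15% in either direction (at an unadjusted p under 0.05, 12 were lower and 1 higher; DESeq2 called 11, none of them higher). They were NME1 (-0.35 ± 0.10), DCTPP1 (-0.32 ± 0.08), PAICS (-0.29 ± 0.05), DUT (-0.29 ± 0.05), IMPDH2 (-0.28 ± 0.05), TK1 (-0.24 ± 0.07), IMPDH1 (-0.21 ± 0.06) and UMPS (-0.19 ± 0.04), as log2 changes with SE. The median log2 change of the 30 genes was -0.10, against 0.01 for all genes tested, and the groups did not overlap for 16 of the 30 genes, at a background of 32.5%. PAICS had 395, 409 and 391 CPM in E79Q cells with CB-839, against 465, 509 and 489 CPM in WT cells with CB-839. UMPS had 109.8, 113 and 108 CPM in E79Q cells with CB-839, against 126, 124 and 127 CPM in WT cells with CB-839. Both pairs of groups were apart. IMPDH1 lost its call without CB-839 E79Q library 2 or CB-839 WT library 3 (adjusted p from 0.106 to 0.167). NME1 lost its call without CB-839 E79Q library 2 or 3 or CB-839 WT library 3 (adjusted p from 0.0529 to 0.109). TK1 lost its call without CB-839 E79Q library 2 or 3 or CB-839 WT library 3 (adjusted p from 0.0845 to 0.141). The count of 8 was 5 without CB-839 WT library 3 or without CB-839 E79Q library 2, and 11 without the 4 libraries with a GC trend.

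In irradiated cells without CB-839, PFAS and RRM2 were higher in E79Q than in WT cells and DUT was lower, where 4.69% of all genes tested were called higher, 4.95% lower and 9.64% in either direction. The median log2 change was 0.02 over the 30 genes and 0.01 over all genes tested. PFAS had 173, 179 and 178 CPM in irradiated E79Q cells, against 145, 151 and 148 CPM in irradiated WT cells, a log2 change of 0.25 ± 0.05 (SE; adjusted p = 0.00148). RRM2 had 227, 228 and 223 CPM in irradiated E79Q cells, against 193, 190.4 and 193 CPM in irradiated WT cells, a log2 change of 0.24 ± 0.05 (SE; adjusted p = 0.00095). Both genes were also higher in control E79Q cells, from other libraries. DUT had 110.3, 108 and 107 CPM in irradiated E79Q cells and 131, 128 and 117 CPM in irradiated WT cells, a log2 change of -0.21 ± 0.05 (SE; adjusted p = 0.00722). DUT lost its call without irradiated WT library 1 (adjusted p = 0.0732). The count of 3 was 9 when the groups compared were fitted alone and 8 without the 4 libraries with a GC trend.

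With CB-839 and radiation together, DUT (-0.24 ± 0.05), PRPS2 (-0.24 ± 0.06), PAICS (-0.19 ± 0.05) and GMPS (-0.19 ± 0.05) were lower in E79Q than in WT cells, at a background of 2.86% called lower, 4.4% called higher and 7.26% in either direction. The median log2 change was -0.04 over the 30 genes and -0.003 over all genes tested. DUT had 94.2, 96.9 and 92.5 CPM in irradiated E79Q cells with CB-839, against 117, 111 and 108 CPM in irradiated WT cells with CB-839. PRPS2 had 49, 44.8 and 46.7 CPM in irradiated E79Q cells with CB-839, against 54.3, 55.2 and 56.8 CPM in irradiated WT cells with CB-839. The groups did not overlap for either gene, at a background of 18.3%. PAICS lost its call without irradiated CB-839 E79Q library 2 or irradiated CB-839 WT library 2 (adjusted p from 0.0719 to 0.0741). GMPS lost its call without irradiated CB-839 E79Q library 2 or irradiated CB-839 WT library 2 or 3 (adjusted p from 0.0705 to 0.11). The count of 4 was 2 without irradiated CB-839 WT library 2. In these groups the libraries differed most in GC trend, and the count was 7 without the 4 libraries named above and 0 when the 2 groups were fitted alone.

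The next comparisons asked what radiation did to these genes. In E79Q cells without CB-839, 10 of the 30 genes were lower after 4 Gy and none was called higher, where 10.1% of all genes tested were called lower, 12.2% higher and 22.3% in either direction (14 lower and 1 higher at an unadjusted p under 0.05; DESeq2 called 12, none of them higher). The median log2 change was -0.10, against 0.02 for all genes tested. The count was again 10 without control E79Q library 2, and 14 without the 4 libraries with a GC trend. In that last run PPAT and GUK1 were called higher (log2 changes of 0.15 and 0.12). The absence of higher genes thus depends on the setting. The control E79Q libraries used here also enter the comparison of controls and the CB-839 comparison above, so the 3 results are not independent. The control WT libraries are shared in the same way. In WT cells without CB-839, 3 were higher and 3 lower, where 9.41% were called higher, 8.49% lower and 17.9% in either direction, with a median of -0.0079 over the 30 genes and 0.004 over all genes tested. For the difference in radiation effect between genotypes, edgeR called 0 of the 30 genes without drug. Of all genes tested, 0.815% were called positive, 0.445% negative and 1.26% in either direction. Of the 30 genes, 6 were at an unadjusted p under 0.05 (all negative) and 3 were called by DESeq2. With CB-839 edgeR also called 0, where 0.363% of all genes tested were called positive, 0.714% negative and 1.08% in either direction, with 4 at an unadjusted p under 0.05 (all positive) and 0 called by DESeq2. For the difference without drug, the compared groups fitted alone gave calls for PRPS1, PFAS, CAD, CTPS1, NME1 and DCTPP1, all negative. PFAS and CAD were also called negative without the 4 libraries with a GC trend.

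**Figure D4:**
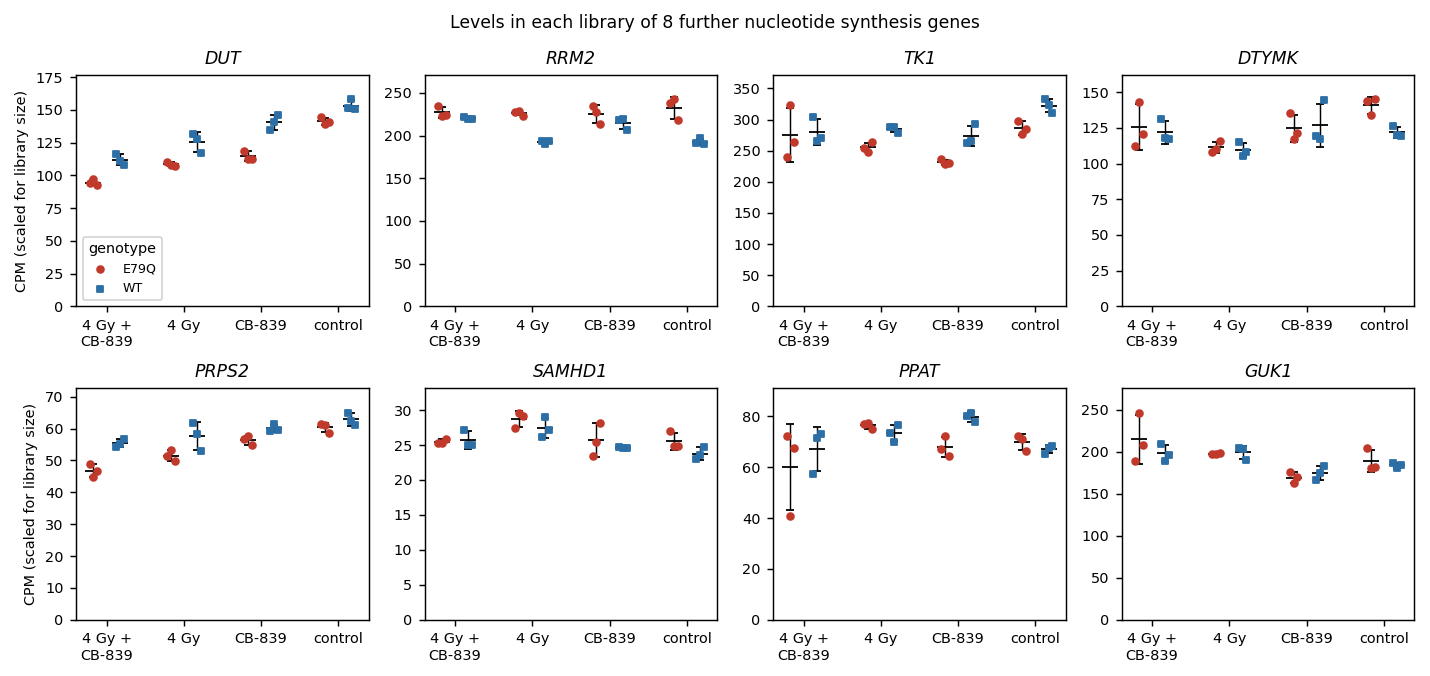
CPM of 8 further nucleotide synthesis genes in each library (red circles, E79Q; blue squares, WT), with the mean and SD of the 3 libraries as black bars, for each treatment from 4 Gy with CB-839 to control. DUT is lower after 4 Gy than in the matching unirradiated cells in both genotypes, and PPAT at 40.8 CPM, TK1 at 323 CPM and GUK1 at 247 CPM show the irradiated CB-839 E79Q library that stands apart.

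DUT was lower after radiation in all 4 settings. It had 110.3, 108 and 107 CPM in irradiated E79Q cells, against 144, 139 and 140.5 CPM in control E79Q cells, a log2 change of -0.38 ± 0.05 (SE; adjusted p = 3.11e-06). In WT cells it had 131, 128 and 117 CPM after radiation and 151, 158 and 150.4 CPM in control cells, a log2 change of -0.29 ± 0.05 (SE; adjusted p = 0.000164). With CB-839 the changes were -0.28 ± 0.05 (SE; adjusted p = 0.000277) in E79Q and -0.33 ± 0.05 (SE; adjusted p = 3.04e-05) in WT cells. Each of the 4 calls held without any 1 library. DUT shares 14.5% of its exonic bases with a gene on the other strand that drew 356 reads over all libraries.

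Among the other genes lower after radiation in E79Q cells without drug, IMPDH2 had 346, 347 and 340.4 CPM in irradiated cells, against 472, 447 and 458 CPM in control E79Q cells, a log2 change of -0.41 ± 0.05 (SE; adjusted p = 1.43e-06). CAD had 228, 221 and 231 CPM in irradiated E79Q cells, against 302, 292 and 288 CPM in control E79Q cells, a log2 change of -0.38 ± 0.06 (SE; adjusted p = 2.55e-05). TYMS had 28.1, 31 and 26.1 CPM in irradiated E79Q cells, against 38.7, 34.6 and 37.5 CPM in control E79Q cells, a log2 change of -0.38 ± 0.07 (SE; adjusted p = 0.000258). All 3 genes had separate sets of libraries, as did 41.9% of all genes tested. DTYMK, which phosphorylates dTMP, was lower at -0.34 ± 0.08 (SE; adjusted p = 0.00267) and DHODH at -0.30 ± 0.08 (SE; adjusted p = 0.0101). DCTPP1, PRPS2, CTPS1 and PFAS changed by -0.23 ± 0.07, -0.23 ± 0.06, -0.20 ± 0.05 and -0.18 ± 0.05 and were also called. PFAS lost its call without control E79Q library 1 or irradiated E79Q library 1 (adjusted p from 0.0575 to 0.0756). DHODH lost its call without control E79Q library 1 or irradiated E79Q library 3 (adjusted p from 0.0576 to 0.0595). DCTPP1 lost its call without control E79Q library 1 or irradiated E79Q library 1 or 3 (adjusted p from 0.0702 to 0.103).

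In WT cells without drug, radiation raised PRPS1, UMPS and SAMHD1, which degrades deoxynucleotides, and lowered DUT, IMPDH2 and GMPS. PRPS1 had 53.2, 55.3 and 51.6 CPM in irradiated WT cells, against 43.1, 44.5 and 43.5 CPM in control WT cells, a log2 change of 0.29 ± 0.06 (SE; adjusted p = 0.00194). IMPDH2 had 368, 374 and 357 CPM in irradiated WT cells, against 428, 462 and 434 CPM in control WT cells, a log2 change of -0.27 ± 0.05 (SE; adjusted p = 0.000525). PRPS1 and IMPDH2 were called without any 1 library. SAMHD1, UMPS and GMPS changed by 0.21 ± 0.07, 0.13 ± 0.04 and -0.15 ± 0.05. GMPS lost its call without control WT library 2 or 3 or irradiated WT library 1, 2 or 3 (adjusted p from 0.0703 to 0.188). UMPS lost its call without control WT library 1, 2 or 3 or irradiated WT library 1 or 2 (adjusted p from 0.0838 to 0.209). SAMHD1 lost its call without any 1 of the 6 libraries compared (adjusted p from 0.0576 to 0.225). The count of 6 was 3 without control WT library 2 or 3 or irradiated WT library 1 or 2, and 12 without the 4 libraries with a GC trend.

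With CB-839, radiation gave 11 calls in E79Q cells, 5 higher and 6 lower, where 15.3% of all genes tested were called higher, 13.9% lower and 29.2% in either direction. In WT cells with CB-839, DUT was the 1 gene called, where 10.4% of all genes tested were called lower and 23.7% in either direction; 8 of the 30 genes were at an unadjusted p under 0.05, and leaving out CB-839 WT library 1 gave 3 calls and CB-839 WT library 2 or 3 or irradiated CB-839 WT library 2 gave 2. In these WT cells 4 genes were called with no filter or with the 2 groups fitted alone, 5 with DESeq2 and 6 without the 4 libraries with a GC trend. In E79Q cells the higher genes were GUK1 (0.34 ± 0.07), PRPS1 (0.30 ± 0.06), TK1 (0.25 ± 0.07), DCTPP1 (0.22 ± 0.08) and IMPDH1 (0.20 ± 0.06). GUK1, the guanylate kinase, had 189.7, 247 and 209 CPM in irradiated E79Q cells with CB-839, against 176, 163 and 169.6 CPM in E79Q cells with CB-839. The lower genes were DUT, PRPS2 (-0.27 ± 0.06), CMPK1 (-0.22 ± 0.07), ADSS (-0.22 ± 0.08), TYMS (-0.20 ± 0.07) and GMPS (-0.18 ± 0.05). TK1, GUK1, IMPDH1 and DCTPP1 have between 55.6% and 62.8% GC and CMPK1, ADSS and GMPS between 37.8% and 42%, against a median of 48.2% over all genes; the part of the GC trend in these calls was not tested beyond leaving out libraries. Without irradiated CB-839 E79Q library 2 the count fell to 5, and without CB-839 E79Q library 2 to 6. GMPS lost its call without irradiated CB-839 E79Q library 2 (adjusted p = 0.115). TK1 lost its call without irradiated CB-839 E79Q library 2 (adjusted p = 0.147). IMPDH1 lost its call without CB-839 E79Q library 2 or irradiated CB-839 E79Q library 2 (adjusted p from 0.105 to 0.117). CMPK1 lost its call without CB-839 E79Q library 2 or irradiated CB-839 E79Q library 2 (adjusted p from 0.0734 to 0.22). DCTPP1 lost its call without CB-839 E79Q library 2 or 3 or irradiated CB-839 E79Q library 2 (adjusted p from 0.107 to 0.223). ADSS lost its call without CB-839 E79Q library 1, 2 or 3 or irradiated CB-839 E79Q library 2 (adjusted p from 0.06 to 0.356). TYMS lost its call without CB-839 E79Q library 1, 2 or 3 or irradiated CB-839 E79Q library 2 or 3 (adjusted p from 0.0732 to 0.216). PRPS1, PRPS2, GUK1 and DUT were called without any 1 library. When the 2 groups were fitted alone 2 genes were called, and 9 were called without the 4 libraries with a GC trend.

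CB-839 was also compared with vehicle in irradiated cells. In irradiated E79Q cells 5 of the 30 were lower with CB-839 and none was called higher, where 13.1% of all genes tested were called lower, 12.9% higher and 26% in either direction (8 lower and 1 higher at an unadjusted p under 0.05; DESeq2 called 5, none of them higher). They were PAICS (-0.27 ± 0.05), PPAT (-0.35 ± 0.12), CMPK1 (-0.27 ± 0.07), DUT (-0.20 ± 0.05) and PFAS (-0.18 ± 0.05). PAICS had 413, 350.4 and 406 CPM in irradiated E79Q cells with CB-839, against 471, 475 and 461 CPM in irradiated E79Q cells without it. These groups were apart, as they were for 35.8% of all genes tested. PPAT, the committing step of purine synthesis, had 72.1, 40.8 and 67.6 CPM in irradiated E79Q cells with CB-839, against 76.9, 77.4 and 75 CPM without it, and its lowest value came from the library with the strongest GC trend; PPAT has 33.8% GC. In irradiated WT cells CTPS1 (0.21 ± 0.05) and RRM2 (0.20 ± 0.05) were higher and DUT (-0.16 ± 0.05) was lower with CB-839, where 4.99% of all genes tested were called higher, 4.53% lower and 9.53% in either direction. In irradiated E79Q cells CMPK1 lost its call without irradiated CB-839 E79Q library 2 (adjusted p = 0.0669). DUT lost its call without irradiated E79Q library 1 or irradiated CB-839 E79Q library 3 (adjusted p from 0.05 to 0.053). PPAT lost its call without irradiated E79Q library 1, 2 or 3 or irradiated CB-839 E79Q library 2 (adjusted p from 0.0622 to 0.267). PFAS lost its call without irradiated E79Q library 1, 2 or 3 or irradiated CB-839 E79Q library 1 or 3 (adjusted p from 0.0522 to 0.132). In irradiated WT cells CTPS1 lost its call without irradiated CB-839 WT library 1 (adjusted p = 0.0637). DUT lost its call without irradiated WT library 1 or 2 or irradiated CB-839 WT library 1, 2 or 3 (adjusted p from 0.0745 to 0.264). The count in E79Q was 2 without irradiated E79Q library 1, 3 without irradiated E79Q library 2 or 3 or irradiated CB-839 E79Q library 2 or 3, and 8 without irradiated CB-839 E79Q library 1, where CAD, GUK1, TK1 and DTYMK were called higher (log2 changes of 0.18, 0.21, 0.21 and 0.26). DTYMK was also called higher with no filter (0.19), so the absence of higher genes depends on the setting. The count was 1 when the 2 groups were fitted alone and 6 without the 4 libraries with a GC trend. In WT it was 1 without irradiated CB-839 WT library 1.

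The CB-839 effect in irradiated cells differed between genotypes for 1 of the 30 genes, CTPS1, in edgeR's test, where 0.652% of all genes tested were called negative and 1.91% in either direction. CTPS1 had 184, 206 and 189 CPM in irradiated E79Q cells with CB-839, against 202, 196 and 206 CPM without it. In irradiated WT cells it had 222, 209 and 209 CPM with CB-839, against 184, 186 and 185 CPM without it. The WT groups were apart, as they were for 32.5% of all genes tested, and the E79Q groups overlapped. The difference was -0.27 ± 0.07 (SE; adjusted p = 0.0455). This call was lost without any 1 of 11 of the 12 libraries (adjusted p from 0.082 to 0.155), irradiated CB-839 E79Q library 2 being the exception (2 genes called without it), and 6 genes, all negative, were at an unadjusted p under 0.05. DESeq2 called 3 genes (CTPS1, PFAS and RRM2) and leaving out the 4 libraries with a GC trend also gave 3 (CTPS1, PFAS and IMPDH1), while no filter and the compared groups alone gave 0.

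**Figure D5:**
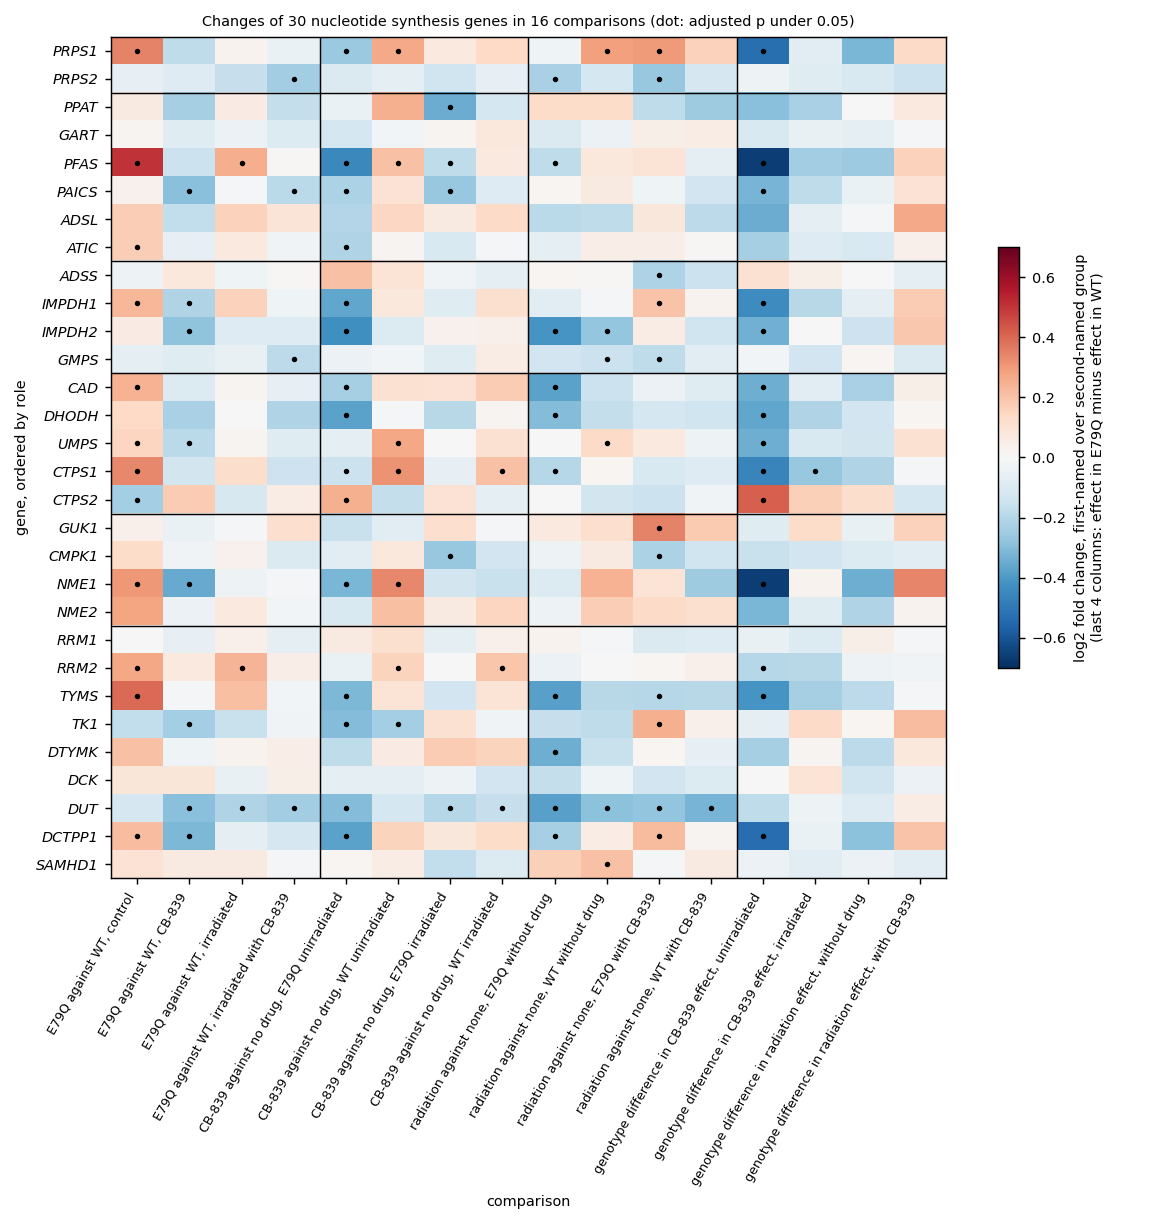
Log2 fold changes of the 30 genes, ordered by role from PRPP supply at the top to deoxynucleotide control at the bottom, in 16 comparisons; red is higher and blue lower in the first-named group, the last 4 columns give the effect in E79Q minus that in WT, and a dot marks an adjusted p under 0.05. The columns for E79Q against WT in control cells and for CB-839 in unirradiated E79Q cells show 12 and 15 dots, and share the control E79Q libraries.

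Grouped by their use of glutamine nitrogen, PFAS, CTPS1 and CAD were higher and CTPS2 lower in control E79Q cells, while PPAT and GMPS were not called, so 4 of these 6 amidotransferases were called, where 19.7% of all genes tested were called in either direction. Their summed level was 1072 to 1101 CPM in control E79Q libraries, against 926 to 959 CPM in control WT libraries. With CB-839 it was 944 to 970 CPM in E79Q and 1020 to 1045 CPM in WT libraries. The genotypes did not overlap in either setting and stood in opposite order. Of all 30 genes, 25 (83.3%) were called in at least 1 of the 16 comparisons, where 65.4% of all genes tested were, and ADSL, DCK, GART, NME2 and RRM1 in none. The 100 calls were 20.8% of the 480 pairs of a gene and a comparison, against 14.6% over all genes tested. Since the 30 genes were chosen with earlier results known and the comparisons share libraries, these shares are no independent support. PPAT, which catalyses the step that commits PRPP to purines, had 67.1, 72.2 and 64.5 CPM with CB-839 in E79Q cells, against 72.3, 71.2 and 66.5 CPM in control E79Q cells. In WT cells it had 80.1, 81.5 and 77.8 CPM with CB-839, against 65.3, 67.6 and 68.3 CPM in control WT cells. Its WT groups were apart, and the fit over all 24 libraries gave 0.25 ± 0.12 (SE; adjusted p = 0.173), which was not called. It was called higher at a like size with no filter (0.26, adjusted p = 0.0156), with the 2 groups fitted alone (0.26, adjusted p = 0.0019) and without the 4 libraries with a GC trend (0.27, adjusted p = 0.000253).

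Genes of neighbouring pathways were counted from lists that were also chosen with earlier results known. The shares of all genes tested that bear on these counts are 9.62% higher and 10.1% lower for control E79Q against control WT cells, 9.44% higher and 10.4% lower for CB-839 in E79Q cells and 6.35% higher and 8.44% lower for CB-839 in WT cells. They are 6.83% negative for the difference between genotypes, 12.2% higher and 10.1% lower for radiation in E79Q cells and 9.41% higher and 8.49% lower for radiation in WT cells. Of 10 genes of MYC and growth, 5 were higher in control E79Q than in control WT cells, with ODC1 (0.44 ± 0.05) and NOP16 (0.45 ± 0.07) of smallest p. With CB-839, 6 of the 10 were lower in E79Q cells, with NOP56 (-0.28 ± 0.04) and FBL (-0.41 ± 0.07) of smallest p, and 7 were higher in WT cells, with NOLC1 (0.28 ± 0.05) and NOP56 (0.25 ± 0.04) of smallest p. The difference between genotypes was called negative for 8 of the 10. MYC itself was not called in these comparisons: it had 396, 375 and 406 CPM with CB-839 in E79Q cells, against 378, 361 and 364 CPM in control E79Q cells, and 381, 378 and 382 CPM with CB-839 in WT cells, against 374, 394 and 384 CPM in control WT cells. After radiation MYC was higher in all 4 settings, by 0.30 ± 0.04 in E79Q and 0.27 ± 0.04 in WT cells without drug.

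Genes of the cell cycle changed in the same comparisons. Of 15 genes of mitosis, 8 were higher in control E79Q than in control WT cells, among them AURKA (0.28 ± 0.05) and PLK1 (0.35 ± 0.06), 5 were lower and 1 higher with CB-839 in E79Q cells, and 8 were higher with CB-839 in WT cells. Of 20 genes of S phase, 2 were higher and 1 lower in control E79Q than in control WT cells, 8 were lower and 1 higher with CB-839 in E79Q cells, and 3 were higher and 1 lower with CB-839 in WT cells. The S phase counts in control cells lay near or below the shares of all genes. MCM2 (-0.41 ± 0.07) and MCM7 (-0.30 ± 0.05), subunits of the replicative helicase, were the S phase genes of smallest p among those lower with CB-839 in E79Q cells. After radiation 12 of the 20 were lower in E79Q cells without drug, led by PCNA (-0.48 ± 0.05), and 8 were lower and 2 higher in WT cells. Their part in the changes of the 30 genes was not tested.

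Of 16 genes that supply folate carbon, serine and amino groups, 4 were higher and 6 lower with CB-839 in E79Q cells, and in WT cells 7 were lower and the other 9 were not called. PSAT1 and PHGDH, enzymes of serine synthesis, were higher with CB-839 in E79Q cells at 0.66 ± 0.05 and 0.88 ± 0.07, and PSAT1 was lower with CB-839 in WT cells at -0.76 ± 0.05, as was asparagine synthetase, ASNS, at -1.63 ± 0.26. The differences between genotypes were 1.43 ± 0.07 for PSAT1 and 1.26 ± 0.09 for PHGDH, of opposite sign to those of PFAS and PRPS1.

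Of 26 salvage and breakdown genes listed, 25 were tested, and in control cells 3 were higher in E79Q, led by NT5E (0.75 ± 0.06), the ectonucleotidase that releases nucleosides, and 3 lower, led by UPP1, the uridine phosphorylase (-0.58 ± 0.06). With CB-839, 3 were higher and 2 lower in each genotype, with XDH, which makes urate, higher at 0.66 ± 0.06 in E79Q and 0.46 ± 0.06 in WT cells. The salvage counts in control cells and for CB-839 in E79Q cells lay near the shares of all genes. After radiation 7 were higher and 4 lower in E79Q cells, with CDA, cytidine deaminase, at 1.38 ± 0.18, and 7 higher and 2 lower in WT cells. Of 4 nucleoside carriers listed, 3 were tested, and 1 was higher and 2 lower in control E79Q than in control WT cells, with 1 higher and 1 lower with CB-839 in each genotype. SLC29A1 was higher in control E79Q than in control WT cells at 0.33 ± 0.06, lower with CB-839 in E79Q cells at -0.24 ± 0.06 and higher with CB-839 in WT cells at 0.29 ± 0.06.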

How the data were processed

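RNA sequencing of 24 libraries from SAS cells was analysed from 1 table of raw counts per gene that the authors deposited, with gene names, positions and lengths. The submitters' processing notes name STAR, HTSeq and GRCh38, with no role, version or strand setting. Library totals ran from 14285084 to 23640197 counts.

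Libraries were scaled by TMM and tested with edgeR 4.0.16 (limma 3.58.1, R 4.3.3): filterByExpr left 15956 of 58735 genes, 1 quasi-likelihood fit held a mean for each of 8 groups (16 residual degrees of freedom), and 16 contrasts were tested, each adjusted by Benjamini-Hochberg over all genes tested and called at an adjusted p under 0.05. Levels are TMM-scaled CPM, and per kilobase they are divided by the deposited gene length. Fold changes and SEs come from the fit. The fitting was tested on simulated data.

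The 30 genes and all lists were chosen with earlier results of these data known. All 30 could be named; of other genes, NFE2L2, NQO1, MYC and, of each list, the 2 of smallest adjusted p in each direction; 1 further gene of the lists is not reported here. Replicate numbers were checked for pairing: 0 of 12 comparisons had every same-numbered pair correlated over 0.1, so they were not used as pairs. No 2 replicates agreed within sampling noise (lowest chi-square per degree of freedom 2.25). Alternatives were DESeq2 1.42.0, RLE factors, no filter, the compared groups alone, a replicate block, leaving out the 4 libraries with a GC trend, and leaving out each library. Promoter windows and gene GC came from RefSeq and GENCODE tables on GRCh38.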

Additional observations from a re-analysis of the deposited data

Results flagged for a closer look

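The effect of CB-839 in unirradiated cells, taken as the effect in E79Q minus that in WT, differed between the 2 genotypes for 14 of the 30 genes by the interaction contrast of edgeR's fit. It was more negative in E79Q for PFAS (log2 difference with SE -0.66 ± 0.08, adjusted p = 5.89e-07), NME1 (-0.66 ± 0.13, adjusted p = 0.0012), DCTPP1 (-0.53 ± 0.11, adjusted p = 0.000986) and PRPS1 (-0.53 ± 0.09, adjusted p = 0.000199). The same held for CTPS1 (-0.46 ± 0.07, adjusted p = 3.85e-05), IMPDH1 (-0.44 ± 0.09, adjusted p = 0.000761), TYMS (-0.41 ± 0.10, adjusted p = 0.00699), DHODH (-0.36 ± 0.12, adjusted p = 0.0427) and CAD (-0.34 ± 0.08, adjusted p = 0.00594). UMPS (-0.34 ± 0.06, adjusted p = 0.000455), IMPDH2 (-0.34 ± 0.08, adjusted p = 0.00273), PAICS (-0.32 ± 0.07, adjusted p = 0.00291) and RRM2 (-0.20 ± 0.07, adjusted p = 0.0436) followed. It was more positive in E79Q for CTPS2 (0.42 ± 0.12, adjusted p = 0.0181). In irradiated cells the same contrast was past the threshold for CTPS1 (-0.27 ± 0.07, adjusted p = 0.0455). Each group holds 3 libraries, too few for a check of single outlying libraries by their gap.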

How the results depend on the processing

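No called gene changed direction under any alternative run. Of the 100 calls among the 30 genes, 95 held with DESeq2, 96 with RLE factors, 78 with no filter, 91 with the replicate block, 80 with the compared groups fitted alone and 92 without the 4 libraries with a GC trend; over the fits that left out 1 library, 533 calls held and 157 were lost. RLE factors moved the median change of all genes by at most 0.023 on the log2 scale. The causes of the moves below were not tested.

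Counts below are of the 30 genes, then of all genes where given. With the compared groups alone, the counts were 9 and 3081 for E79Q against WT in irradiated cells (3 and 1538 in the report), 0 and 234 with radiation and CB-839 (4 and 1159), 1 and 1601 for CB-839 in irradiated E79Q cells (5 and 4141), 12 and 4322 for radiation in WT cells (6 and 2855), 4 for radiation in WT cells with CB-839 (1) and 2 and 1667 in E79Q cells with CB-839 (11 and 4667). They were 0 and 132 for the genotype difference in the CB-839 effect in irradiated cells (1 and 305), 6 and 611 for that in the radiation effect without drug (0 and 201) and 40 of all genes for that with CB-839 (172). Without the 4 libraries with a GC trend, they were 8 and 2606 for E79Q against WT in irradiated cells, 7 with radiation and CB-839, 12 and 4313 for radiation in WT cells, 6 for radiation in WT cells with CB-839, 3 and 719 for the difference in the CB-839 effect in irradiated cells and 2 and 507 for that in the radiation effect without drug. With DESeq2, they were 5 for CB-839 in irradiated WT cells (3), 5 for radiation in WT cells with CB-839, 3 and 477 for the difference in the CB-839 effect in irradiated cells and 3 and 318 for that in the radiation effect without drug. With no filter, they were 2 for E79Q against WT with radiation and CB-839, 4 for radiation in WT cells with CB-839 and 0 for the difference in the CB-839 effect in irradiated cells.

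With the replicate block the counts were 3 for radiation in WT cells and 0 for the difference in the CB-839 effect in irradiated cells; the other counts stayed within 1.5 times, among them 10 for E79Q against WT in control cells, 14 for CB-839 in unirradiated E79Q cells and 14 for the genotype difference. Same-numbered libraries correlated from -0.175 to 0.0466, and 4 of 24 libraries correlated best with their own number, so a call lost with the block is not read as a weaker effect.

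Leaving out 1 library at a time, the 30 genes gave 6 to 10 calls for E79Q against WT in control cells, 5 to 9 with CB-839 and 2 to 5 with radiation and CB-839 (740 to 1639 of all genes). CB-839 gave 4 to 6 in unirradiated WT cells, 1 to 3 in irradiated WT cells (638 to 1477) and 2 to 8 in irradiated E79Q cells. Radiation gave 3 to 4 in WT cells, 1 to 3 in WT cells with CB-839 and 5 to 13 in E79Q cells with CB-839 (3073 to 5683). The differences gave 0 to 2 for CB-839 in irradiated cells (145 to 545), 0 to 1 for radiation without drug (107 to 144) and 92 to 252 of all genes for radiation with CB-839. CB-839 in unirradiated E79Q cells gave 11 to 14 calls.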
